A study of Mus musculus with 8 samples.

Results

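The SR proteins, the heterogeneous nuclear ribonucleoproteins (hnRNPs) and the kinases that phosphorylate SR proteins were examined as 1 group of transcripts in mouse mast cells. Members were the protein-coding genes with a symbol of the Srsf or Hnrnp series, together with Clk1 to Clk4, Srpk1 to Srpk3, Tra2a, Tra2b, Ptbp1 to Ptbp3 and Rbm39. Of the 56748 gene IDs in the count tables, 21630 were protein-coding and 45 were members. They comprised 12 SR proteins, 20 hnRNPs, 7 kinases, 2 Tra2 genes, 3 Ptbp genes and Rbm39. After genes with low counts were set aside 43 members were tested, among 14942 genes in all. Srsf12 had 1 count in all 8 libraries and Srsf19 had 0, so both were left untested. Processed pseudogenes with matching symbols, Srsf3-ps, Hnrnpa1l2-ps and Hnrnpa1l2-ps2, are not protein-coding and each had 0 to 15 counts per library.

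Bone marrow-derived mast cells (BMMCs) were grown in IL-3 from whole bone marrow of young adult C57BL/6 mice and were sequenced at rest, as poly-A RNA. In the 4 Mettl3-RNP libraries (genotype label Mettl3 KO) the cells had been electroporated with Cas9 ribonucleoproteins (RNPs) directed against Mettl3, the catalytic subunit of the complex that deposits N6-methyladenosine (m6A) on mRNA. In the 4 Pulsed libraries (genotype label Mettl3 WT) the cells had been mock transfected, so the control had received no Cas9 RNP. The Mettl3-RNP cells were an edited population with untargeted cells in it, not a clone, and both groups carried the replicate numbers 1 to 4. In a bulk sample, fewer cells of a type and less RNA per cell cannot be told apart.

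SR proteins bind exonic sequences through RNA recognition motifs and recruit the spliceosome through domains rich in arginine and serine. HnRNPs coat the nascent transcript and often act against SR proteins, silencing exons or splice sites. SRPK kinases phosphorylate the arginine-serine domain in the cytoplasm, which lets SR proteins enter the nucleus, and CLK kinases phosphorylate it in the nucleus, which releases them from speckles. Many of these genes limit their own expression by including a poison exon or retaining an intron, and the resulting transcripts are degraded or kept in the nucleus. Several family members, among them Hnrnpa2b1, Hnrnpc, Srsf3 and Srsf10, have been linked to the recognition of m6A or to its nuclear reader Ythdc1.

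Guide sequences against Mettl3, 3 in all, are listed in the study's sequence table. They are shown because a cut in Mettl3 is the treatment compared here, with the adjacent motif (PAM) of the genome in capitals. Which of them was used for these libraries is not given in the sources used here.
crRNA_Mettl3_1: cacgggactatcactacggaAGG
crRNA_Mettl3_2-HDR: ggacacgtggagctctatccAGG
crRNA_Mettl3_3-HDR: gatggggtaaccaacaatcgAGG
On the mouse build GRCm39 each matched chromosome 14 at 1 place within Mettl3 (chr14:52531551-52542608). The first lies in the coding part of exon 2 (chr14:52537803-52537822, plus strand), the second in the coding part of exon 1 (chr14:52542420-52542439, minus strand) and the third in intron 1 (chr14:52542216-52542235, plus strand).

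A second set of sequences belongs to Hnrnpa0, the 1 member that passed the test between the groups. Hnrnpa0 (ENSMUSG00000007836, chr13:58273693-58276370, minus strand, GRCm39) has 1 exon of 2678 bases and 1 annotated transcript, and no gene on the opposite strand overlaps it. Its transcript holds GGACT, the most typical core of the m6A consensus, at 4 places. They are shown with 8 bases on each side and GGACT in capitals, read along the transcript from the reference genome.
Hnrnpa0 site 1, coding: acgctgacGGACTgcgtggtg
Hnrnpa0 site 2, 3′ UTR: ctgaaggtGGACTcggcccca
Hnrnpa0 site 3, 3′ UTR: tcattgatGGACTctattttt
Hnrnpa0 site 4, 3′ UTR: tgttgtaaGGACTtgatacct
The windows lie at chr13:58276014-58276034, chr13:58275060-58275080, chr13:58275015-58275035 and chr13:58274840-58274860. Sites 2 to 4 begin 140, 185 and 360 bases after the end of the coding sequence. A GGACT was present in the canonical transcript of 42 of the 43 tested members (97.7%), against 93.8% of 12056 tested protein-coding genes, and Hnrnpab was the member without one. Per kb of transcript Hnrnpa0 held 1.49 copies, where the median was 0.649 for the members and 1.04 for the protein-coding genes. Clk2 (3.24), Srsf9 (2.56) and Srpk3 (1.98 copies per kb) held more and Hnrnpf (1.46) nearly as many. None of these passed the test between the groups, though Srpk3 had only 89 counts over the 8 libraries. A link between the number of copies and the change was not tested. These are matches of letters, and methylation was not measured in these libraries. The study mapped m6A in other libraries of resting and stimulated mast cells, and those data were not used here.

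Total counts were 32643260 to 41351831 in Mettl3-RNP libraries and 33942160 to 45324826 in Pulsed libraries. Levels are given as CPM, counts per 1000000 counts of a library after TMM scaling. Mettl3, the targeted gene, was at 12.3, 9.18, 4.88 and 9.21 CPM in Mettl3-RNP 1 to 4 and at 25.9, 24.5, 11.2 and 26.5 CPM in Pulsed 1 to 4. It fell in 4 of 4 pairs (log2 fold change -1.30, SE 0.109, edgeR adjusted p 0.00543). Mast cell markers summed to 40794 to 57652 CPM in Mettl3-RNP and 46052 to 64396 CPM in Pulsed libraries, and of 11 tested Cpa3 alone passed (log2 fold change -0.37, adjusted p 0.0328). The 6 basophil markers summed to 3548 to 4510 against 4030 to 5183 CPM (2 lower, Il18rap and Ifitm1), 6 macrophage markers to 4.17 to 9.50 against 6.35 to 10.3 CPM (Adgre1 lower), and 7 erythroid markers to 9.26 to 14.8 against 15.7 to 29.1 CPM (Car2 lower). Neutrophil markers reached at most 0.373 CPM, with S100a8, S100a9, Elane and Camp at 0 counts in each library. Whether cells other than mast cells were present, or had a part in the values of the members, was not tested. Replicate 3 stood apart in both groups. Immediate early genes, a list of 16 first-response genes such as Fos and Egr1, summed to 26055 CPM in Mettl3-RNP 3 and 22471 CPM in Pulsed 3, against 784 to 6729 and 613 to 4345 CPM in the other libraries of each group. None of the 16 passed the test between the groups (median log2 fold change 0.23). Mettl3-RNP 2 had the most genes with a count, 28483 against 21871 to 27045 in the other 7 libraries.

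The members made up 0.963, 1.12, 1.43 and 1.24% of all counts in Mettl3-RNP 1 to 4 and 0.989, 1.25, 1.52 and 1.28% in Pulsed 1 to 4. The share was lower in the Mettl3-RNP library of each pair, while the ranges of the groups overlapped widely. Levels of different genes were compared per kb of the canonical transcript. On this scale Hnrnpa2b1 was the highest of the 42 members above 1 CPM, with a mean of 375 CPM per kb over the 8 libraries. Srsf5 (353), Hnrnpa1 (330), Hnrnpab (291), Hnrnph1 (226) and Hnrnpl (200 CPM per kb) followed. Hnrnpr (7.45), Srpk2 (7.66) and Ptbp2 (12.3 CPM per kb) were the lowest, so that the range spanned 50.4-fold. Srpk3, best known from muscle, stayed below 0.5 CPM in every library. All 41 pairs of neighbours in this order had overlapping ranges over the libraries. The order also depended on the length used, since per kb of all annotated exons together Hnrnpa1 came first (162) followed by Srsf5 (118), Hnrnpa3 (109) and Hnrnpa2b1 (106 CPM per kb).

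**Figure D1:**
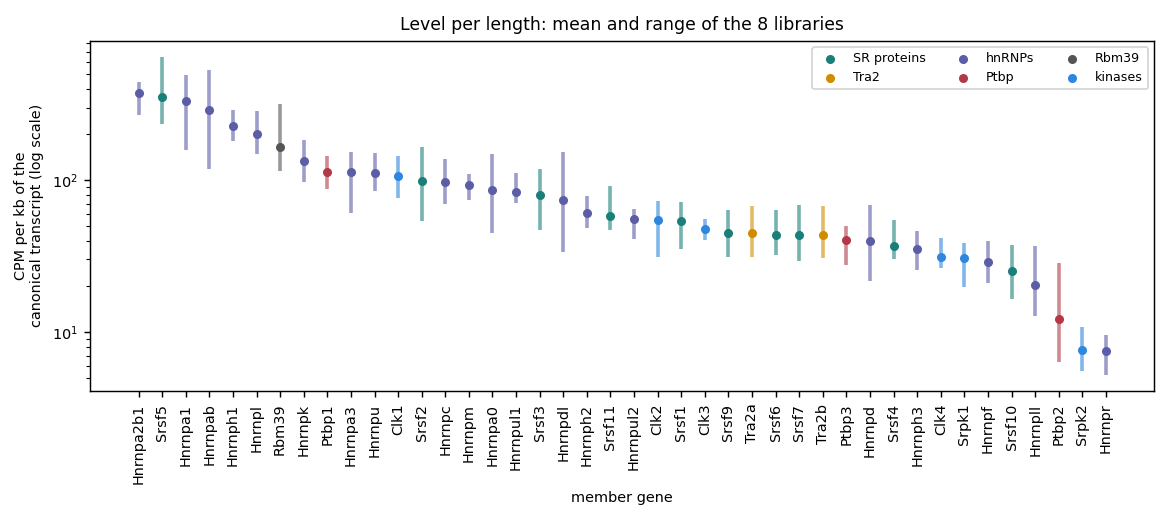
Level of the 42 members above 1 CPM, as CPM per kb of the canonical transcript on a log scale, with points for the mean and bars for the range over the 8 libraries, coloured by family. The hnRNPs span the whole order, from Hnrnpa2b1 at 375 to Hnrnpr at 7.45 CPM per kb, and every neighbouring pair of bars overlaps.

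The first question was whether any of these transcripts changed when Mettl3 was depleted. Of the 43 tested members, 1 was higher and 0 were lower at an adjusted p of 0.05 or less in the paired edgeR test over all genes, where 2.35% of all tested genes were higher and 1.39% lower. With a fold change of at least 1.5 in addition, 0 members passed, and 2.06% of all genes did. At an unadjusted p under 0.05, 2 members were higher (4.65%) and 9 lower (20.9%), against 11.8% and 10.7% of all genes. The intervals of the members were narrow. For 42 of 43 members the 95% interval of the log2 fold change lay within 1.5-fold in both directions, against 56.6% of all genes, and Srpk3 was the exception. The same 42 members averaged 30 CPM or more, as did 5658 of the 14942 genes, so these shares compare genes of unlike level. Among the 5658 genes that averaged 30 CPM or more, 4.88% passed an adjusted p of 0.05 in either direction, and 1 of 42 members (2.38%) did.

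Most members nevertheless had slightly lower fitted levels in Mettl3-RNP cells. The fitted fold change was below 0 for 37 of 43 members (86.0%), against 50.2% of all genes and 54.8% of genes at 30 CPM or more. The median log2 fold change was -0.13 over the members and -0.0013 over all genes, or -0.13 against -0.022 at 30 CPM or more. In 4 of 4 pairs 15 members were lower (34.9%) and 3 were higher (6.98%), where 16% of all genes were lower and 15.7% higher. At 30 CPM or more, 15 of 42 members (35.7%) were lower in 4 of 4 pairs, against 20.4% of genes. The median of the members differed between pairs, at -0.033, -0.16, -0.18 and -0.045 in pairs 1 to 4, with 24, 37, 37 and 25 members lower (55.8, 86.0, 86.0 and 58.1%). Over all genes the medians were -0.023, 0.0030, -0.026 and 0.020, with 53.3, 49.7, 53.1 and 48% lower, so in pair 1 the members lay close to the other genes. Without replicate 2 the median was -0.085 and without replicate 3 it was -0.108, with 35 and 34 members below 0. The medians of all genes in these fits were -0.023 and -0.0016. With total counts in place of TMM the median was -0.0996, and that of all genes moved to 0.032.

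**Figure D2:**
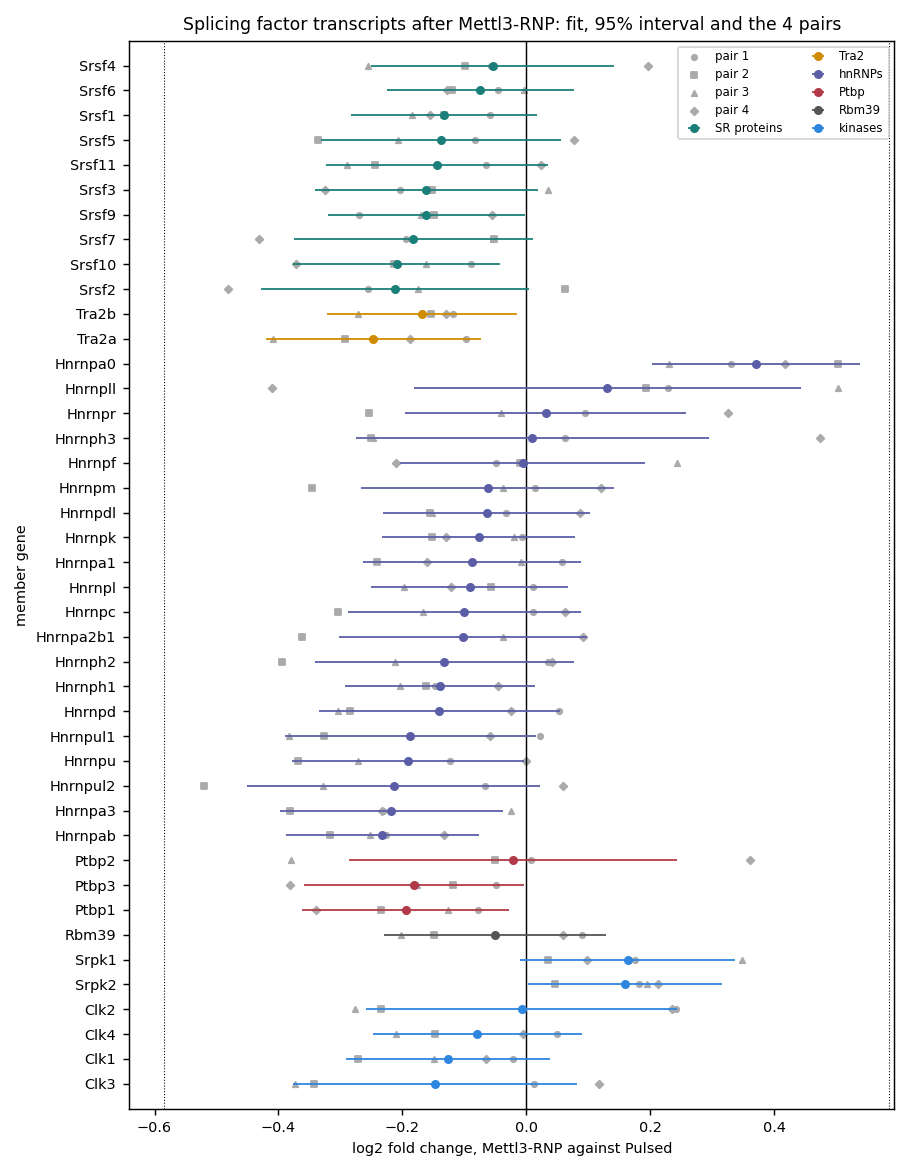
Log2 fold change of 42 members, Mettl3-RNP against Pulsed, with the paired edgeR estimate and its 95% interval in the colour of the family and the difference of each pair in grey (Srpk3, below 0.5 CPM, is left out). Dotted lines mark a fold change of 1.5, and no interval reaches them, with bounds from -0.45 to 0.54.

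Hnrnpa0 was the 1 member called higher. Its protein binds AU-rich elements in the 3′ UTR of inflammatory mRNAs and is a substrate of the stress kinase MK2. It was at 152, 252, 400 and 223 CPM in Mettl3-RNP 1 to 4 and at 121, 178, 341 and 167 CPM in Pulsed 1 to 4. Each Mettl3-RNP library lay above its own pair partner, but the groups overlapped, because the pairs differed from each other by more than the groups did. The means were 257 ± 104 CPM (SD, n = 4) and 202 ± 95.96 CPM (SD, n = 4). The paired differences were 0.33, 0.50, 0.23 and 0.42 on the log2 scale, and the log2 fold change was 0.37 (SE 0.072, edgeR adjusted p 0.0359), a ratio of 1.29. The call depended on the pairs kept and on the pairing, as the edgeR adjusted p was 0.126, 0.174 and 0.182 without replicate 1, 2 or 4, 0.0449 without replicate 3 and 0.999 without the replicate block, while the log2 fold change stayed between 0.32 and 0.42. Hnrnpa0 is also the 1 tested member with a single exon, as are 254 of the 12056 tested protein-coding genes (2.11%).

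The SR proteins were all expressed, apart from Srsf12 and Srsf19. Mean levels of the 10 tested genes ran from 52.6 to 664 CPM. Each of the 10 had a fold change below 0, with a median of -0.15 and a range from -0.21 to -0.05, and Srsf4 lay above 0 without replicate 3 (0.01). In 4 of 4 pairs 5 were lower (Srsf1, Srsf6, Srsf7, Srsf9 and Srsf10). None passed, and the smallest edgeR adjusted p was 0.138. Their levels summed to 1581, 1845, 2927 and 1800 CPM in Mettl3-RNP 1 to 4 and to 1704, 2074, 3256 and 1972 CPM in Pulsed 1 to 4, lower in each pair with overlapping groups.

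Srsf10, a splicing repressor when dephosphorylated, had the smallest p of the family. It was at 50.6, 66.2, 102 and 65.1 CPM in Mettl3-RNP and 53.8, 76.8, 114 and 84.2 CPM in Pulsed libraries (log2 fold change -0.21, SE 0.072, edgeR adjusted p 0.138). Srsf2, the speckle protein SC35, was at 135, 250, 364 and 169 against 161, 239, 411 and 236 CPM, lower in 3 of 4 pairs (-0.21, SE 0.094, adjusted p 0.231). Both genes had their highest level in replicate 3 and their lowest in replicate 1 of either group, and the groups overlapped. Srsf9 was at 36.6, 51.4, 66.3 and 44.5 against 44.1, 57.0, 74.6 and 46.3 CPM (-0.16, SE 0.069, adjusted p 0.216). Its exons share 4654 bases with Gatc on the opposite strand and those of Srsf2 share 2088 with Mettl23, so without knowing the strand setting of the counting these counts are less certain.

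Srsf3, an export adaptor that Ythdc1 recruits to m6A-marked exons, was at 136, 244, 342 and 161 CPM in Mettl3-RNP and 157, 272, 334 and 202 CPM in Pulsed libraries. It was lower in 3 pairs and higher in pair 3 (-0.16, SE 0.078, edgeR adjusted p 0.270). Srsf5, the most abundant SR transcript, was at 501, 439, 1059 and 515 against 531, 555, 1222 and 488 CPM (-0.14, SE 0.084, adjusted p 0.385). Replicate 3 was far above the other libraries in both groups, and the difference between the groups was small beside it. The other 5 had adjusted p from 0.245 (Srsf7) to 0.762 (Srsf4), with Srsf1, the founding member of the family, at -0.13.

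Tra2a and Tra2b, SR-like proteins that bind purine-rich exonic enhancers, were both lower in 4 of 4 pairs without passing. Tra2a was at 78.2, 59.8, 97.4 and 78.1 CPM in Mettl3-RNP and 83.6, 73.2, 129 and 89.0 CPM in Pulsed libraries. The log2 fold change of -0.25 (SE 0.075, edgeR adjusted p 0.105) was the lowest of any member above 1 CPM, a ratio of 0.843. Tra2b was at 108, 119, 197 and 148 against 118, 133, 238 and 162 CPM (-0.17, SE 0.066, adjusted p 0.183). For both genes all but the lowest Mettl3-RNP library lay inside the range of the Pulsed group.

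The hnRNPs were the most abundant family, with mean levels from 82.4 to 1101 CPM. Of 20, 16 had a fold change below 0 and 4 above it, with a median of -0.096 and a range from -0.23 to 0.37. Lower in 4 of 4 pairs were Hnrnpab, Hnrnpa3, Hnrnpu, Hnrnph1 and Hnrnpk, and Hnrnpa0 was higher. The summed level was 5650, 7242, 10231 and 8198 CPM in Mettl3-RNP 1 to 4 and 5847, 8659, 11108 and 8305 CPM in Pulsed 1 to 4. Pair 2 had the widest gap and pair 4 the narrowest.

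Hnrnpab, a shuttling relative of Hnrnpd, was at 248, 530, 920 and 526 CPM in Mettl3-RNP and 290, 660, 1096 and 577 CPM in Pulsed libraries. Its log2 fold change was -0.23 (SE 0.067, edgeR adjusted p 0.0953), with paired differences between -0.32 and -0.13, and its adjusted p over the 12 alternatives ran from 0.00178 to 0.999, with 0.0271 in the DESeq2 Wald test. The range within each group was more than 3 times the gap in any pair, and 2353 bases of its exons overlap Phykpl on the opposite strand. Hnrnpa3, a close relative of Hnrnpa1 and Hnrnpa2b1, was at 316, 537, 785 and 548 against 371, 699, 798 and 644 CPM (-0.22, SE 0.078, adjusted p 0.149). Hnrnpu, which binds chromatin-associated RNA, was at 649, 684, 951 and 883 against 707, 882, 1148 and 883 CPM (-0.19, SE 0.081, adjusted p 0.215), and pair 4 differed by -0.001.

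Among the hnRNPs linked to m6A, Hnrnpa2b1 was at 782, 1010, 1169 and 1295 CPM in Mettl3-RNP and 838, 1298, 1200 and 1216 CPM in Pulsed libraries. It was lower in 3 of 4 pairs (-0.10, 95% interval -0.30 to 0.10, edgeR adjusted p 0.547), with the difference mainly in pair 2. Hnrnpc, which binds uridine tracts that m6A can unfold, was at 227, 260, 394 and 314 against 225, 321, 443 and 301 CPM (-0.10, 95% interval -0.29 to 0.09, adjusted p 0.530). It was lower in 2 pairs and higher in 2. Hnrnpr (0.03), Hnrnph3 (0.01), Hnrnpf (-0.01) and the regulator of CD45 splicing Hnrnpll (0.13) had the remaining fold changes nearest to or above 0, with adjusted p from 0.631 to 0.977. The other 10 hnRNPs, among them Hnrnpa1, Hnrnpk and Hnrnpl, had fold changes from -0.21 (Hnrnpul2) to -0.06 (Hnrnpm) and adjusted p from 0.257 to 0.736. Hnrnpll was the most uneven member above 1 CPM, with paired differences from -0.41 in pair 4 to 0.50 in pair 3.

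**Figure D3:**
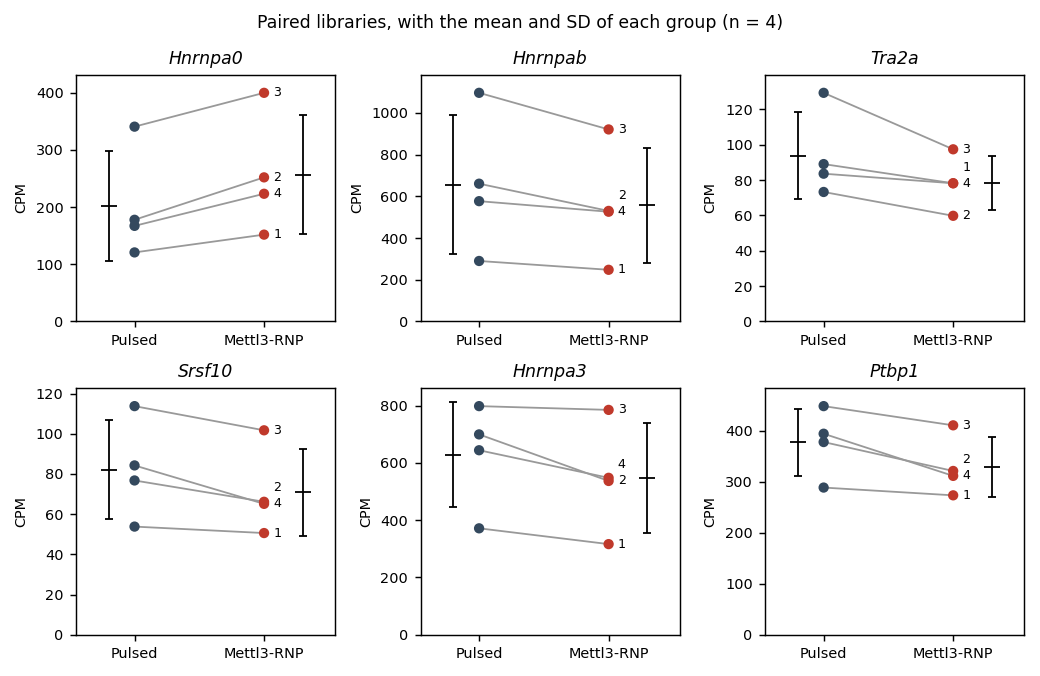
CPM in each library for the 6 members with the smallest p, with lines joining the Pulsed and Mettl3-RNP libraries of the same replicate number, the number beside the Mettl3-RNP point, and dashes with bars for the mean and SD of each group (n = 4). Hnrnpa0 is higher in each Mettl3-RNP library than in its partner (for instance 252 against 178 CPM in pair 2) and the other 5 are lower, while the SD bars of the groups overlap in all 6 panels.

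Polypyrimidine tract binding proteins repress exons, with Ptbp1 found in most cells, Ptbp2 mainly in neurons and Ptbp3 in blood cells. Ptbp1 was at 273, 321, 411 and 312 CPM in Mettl3-RNP and 289, 378, 448 and 394 CPM in Pulsed libraries (-0.19, SE 0.072, edgeR adjusted p 0.162). Ptbp3 was at 306, 279, 188 and 263 against 316, 303, 213 and 343 CPM (-0.18, SE 0.077, adjusted p 0.215). Both were lower in 4 of 4 pairs, but in replicate 3 they went opposite ways, with Ptbp1 at its highest and Ptbp3 at its lowest in both groups. Ptbp2 was detected at 23.9 to 107 CPM, with a log2 fold change of -0.02 (adjusted p 0.936). Rbm39, a splicing factor related to U2AF, was at 364, 345, 786 and 344 against 342, 383, 904 and 330 CPM (-0.05, SE 0.078, adjusted p 0.756), lower in 2 pairs and higher in 2.

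Of the 7 kinases, 5 had a fold change below 0 and 2 above it, with a median of -0.079. Srpk2 was at 71.3, 43.4, 41.9 and 58.1 CPM in Mettl3-RNP and 62.8, 42.0, 36.6 and 50.1 CPM in Pulsed libraries (0.16, SE 0.068, edgeR adjusted p 0.216), and Srpk1 had a log2 fold change of 0.16 (SE 0.075, adjusted p 0.246). Both were higher in 4 of 4 pairs without passing, and 1035 bases of the exons of Srpk2 overlap Kmt2e on the opposite strand. Clk1, the most abundant kinase, was at 185, 137, 232 and 176 against 188, 166, 257 and 184 CPM, lower in 4 of 4 pairs (-0.13, SE 0.071, adjusted p 0.341). Clk2 (-0.01), Clk3 (-0.15) and Clk4 (-0.08) had adjusted p from 0.436 to 0.978, and Srpk3 had 89 counts over the 8 libraries in all (-0.86, SE 0.775). Summed kinase levels were higher in the Mettl3-RNP library in pairs 1 and 4 and lower in pairs 2 and 3.

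The spread of the members lay mostly between replicate numbers. A median of 91.6% of the variance in log2 CPM was between replicate numbers and 4.06% between groups, against 78.3% and 5.68% over all tested genes. For 25 members over 90% was between replicate numbers. In Clk3 that share was 10.1% and the share between groups 28.7%, the largest of any member. No member had groups that did not overlap, where 3.23% of all genes did.

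**Figure D4:**
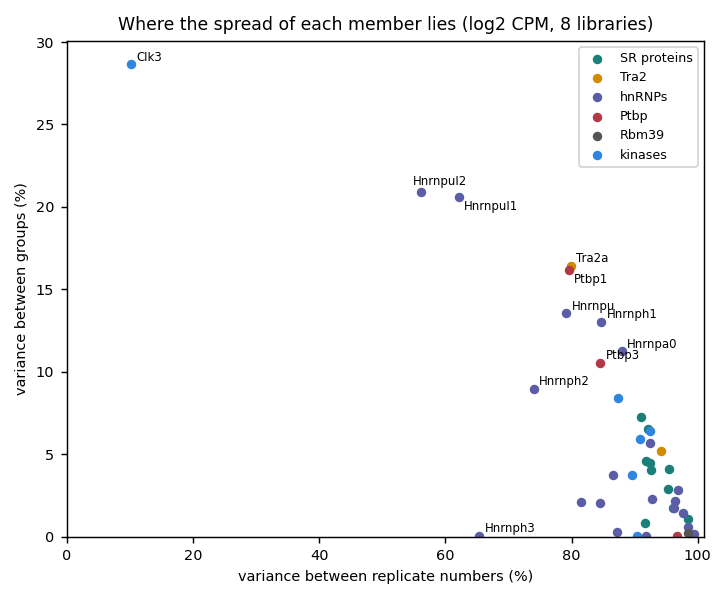
Share of the variance of log2 CPM over the 8 libraries that lay between replicate numbers (horizontal axis, %) and between groups (vertical axis, %), with 1 point for each of 42 members, coloured by family (Srpk3 left out). Most points sit at the lower right, Hnrnpa0 at 87.9 and 11.2%, and Clk3 stands alone at 10.1 and 28.7%.

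Replicate 3 held much of this spread. In both groups 34 members were higher in replicate 3 than the mean of the other replicates (79.1%, against 42.6% of all genes). Lower were 7 (16.3%, against 37.5%), namely Srsf1, Ptbp3, Hnrnpul2, Hnrnph3, Clk2, Srpk1 and Srpk2. The median log2 difference was 0.53 in Mettl3-RNP and 0.61 in Pulsed libraries, against 0.016 and 0.081 over all genes. The 5 members over 1 log2 unit higher in both groups (11.6%, against 6.06% of all genes) were Srsf5, Hnrnpab, Rbm39, Hnrnpdl and Ptbp2. Hnrnpdl was at 480 CPM in Mettl3-RNP 3 and 533 CPM in Pulsed 3, against 116 to 215 and 118 to 239 CPM in the other libraries. Replicate 3 was also the pair with the highest immediate early genes, and their part in these levels was not tested. With 1 such pair, the level of those genes and the replicate number cannot be told apart.

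**Figure D5:**
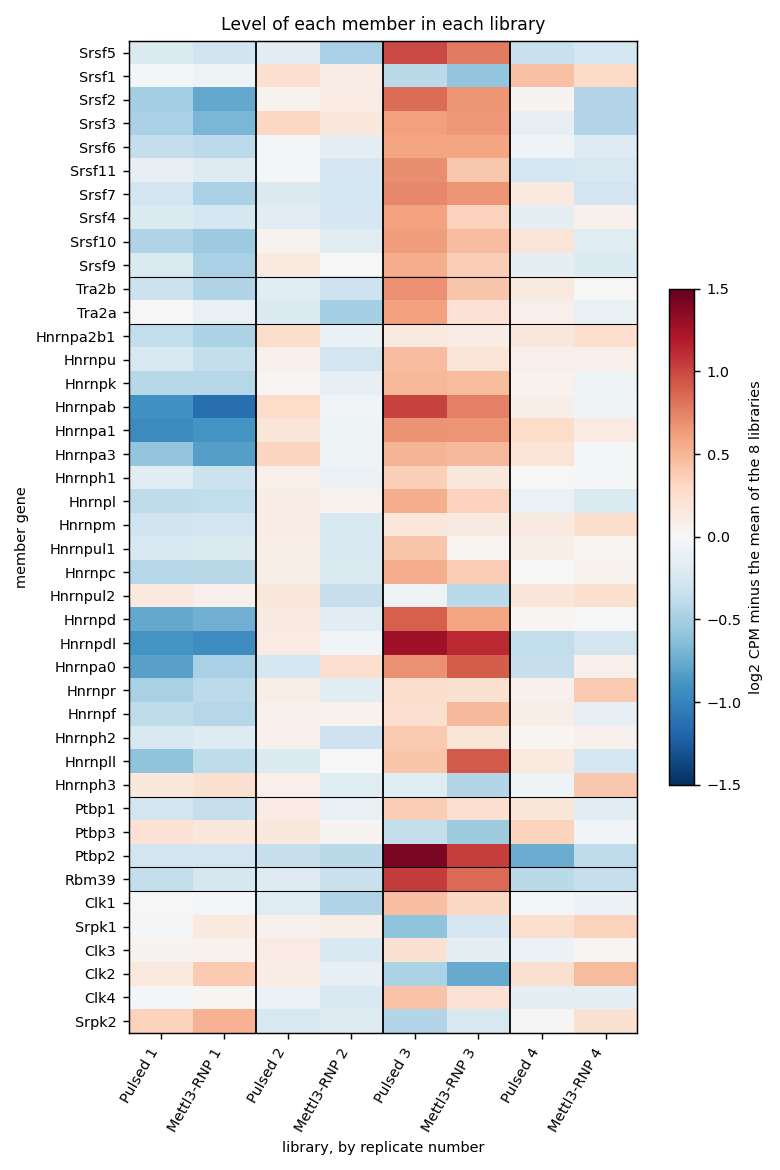
Log2 CPM of 42 members in each library minus the mean of the 8 libraries (colour scale from -1.5 to 1.5), with libraries ordered by replicate number and members by family and mean level (Srpk3 left out). Columns of the same number look alike, with replicate 1 low for many hnRNPs and replicate 3 high for most members but low for Srsf1, Ptbp3, Clk2, Srpk1 and Srpk2.

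Counts per gene add up all isoforms, so poison exon use and intron retention were not measured. In the annotation, 37 of the 43 members (86.0%) have a transcript marked for nonsense-mediated decay and 35 (81.4%) one with a retained intron, against 75.2% and 59.8% of the tested protein-coding genes. Rbm39 has 81 transcripts of the former kind, Srsf5 55 and Clk4 38, while Hnrnpa0, Hnrnpa3, Hnrnpf, Hnrnph2, Hnrnpm and Hnrnpul2 have 0. Exons of 33 tested members overlap a gene on the opposite strand, and 10 members have no such overlap, among them Hnrnpa0, Tra2a, Srsf6, Srsf7, Hnrnpc, Ptbp3 and Clk1.

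Other genes of the splicing pathway were taken as 9 lists with 119 genes, all of them tested. In this set 1 gene passed (0.840%, against 3.74% of all tested genes), Ppp1ca, a catalytic subunit of protein phosphatase 1, which removes phosphates from SR proteins. It was at 409, 466, 536 and 503 CPM in Mettl3-RNP and 496, 653, 657 and 623 CPM in Pulsed libraries, and it fell in 4 of 4 pairs (log2 fold change -0.34, SE 0.070, edgeR adjusted p 0.0413). The call was lost in 7 of 12 alternatives, with edgeR adjusted p of 0.102, 0.185, 0.0678 and 0.250 without replicate 1, 2, 3 or 4, 0.999 without the block, 0.0509 with DESeq2 size factors and 0.150 with no filter. The log2 fold change stayed between -0.40 and -0.30. Each pair showed the difference, with some overlap between Mettl3-RNP 3 and 4 and Pulsed 1. Of the 119 genes 85 (71.4%, against 50.2% of all genes) had a fold change below 0, with a median of -0.072. All 10 genes of the U1 snRNP (median -0.094), all 7 Sm proteins (-0.14) and all 3 transportins, nuclear importers of SR proteins or hnRNPs (-0.13), were below 0, as were 12 of 18 genes of the U2 snRNP (-0.075), 8 of 13 of the tri-snRNP (-0.048), 6 of 9 of the Prp19 complex (-0.087) and 28 of 34 other splicing regulators (-0.076). The other kinases and phosphatases (4 of 11 below 0, median 0.029) and the nonsense-mediated decay factors (7 of 14, median 0.0051) lay close to the median of all genes. None of these lists other than that of Ppp1ca held a gene past the threshold.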

How the data were processed

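The authors aligned reads with HISAT2 2.2.1 to GRCm39 after FastQC 0.11.9 and counted them with featureCounts 2.0.1, and the deposited values are raw counts per gene. The study's methods name removeBatchEffect after counting, and no correction is visible in the counts. Strand and multimapping settings are not given in the sources used here. Names, positions and transcripts came from GENCODE mouse release M39 (GRCm39), which named 56017 IDs (98.7%).

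Genes were filtered with filterByExpr of edgeR 4.0.16 (count of 10), scaled by TMM (factors 0.889 to 1.05) and tested over 14942 genes by the quasi-likelihood test in R 4.3.3, blocked by replicate number, with Benjamini-Hochberg adjustment. Standard errors came from the test statistic. The series text names 4 mice for 8 samples, so a number was taken to stand for a mouse, which is an inference. Residuals of libraries with the same number correlated at 0.825, 0.489, 0.879 and 0.765 over 11985 genes of at least 1 CPM, and of different numbers at 0.183 at most. Replicates differed by more than counting noise (chi-square per degree of freedom 59.8 or more). Reads carry no molecular identifiers, and errors come from the spread between pairs. Paired differences and variance shares used log2 CPM with a prior count of 2.

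Values in each library are given for members past an adjusted p of 0.05, filled up to the 12 smallest p, for the most abundant member of each family and for Hnrnpa2b1, Hnrnpc, Srsf3 and Srsf10. Genes of the 9 other splicing lists are named when past that limit. The members, these lists, the immediate early genes and the markers of mast cells, macrophages, neutrophils, basophils and erythroid cells were chosen with earlier results of these data known. Alternatives were no replicate block, other scaling, DESeq2 1.42.0, limma 3.58.1 (voom, and removeBatchEffect before limma-trend), other filters and leaving out each pair. The tests were checked on simulated data.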

Additional observations from a re-analysis of the deposited data

Results flagged for a closer look

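Of 86 groups of 4 values, 11 had 1 library set far apart from the other 3 by Dixon's ratio. About 4.3 would be expected by chance at 1 in 20 if the groups were independent and the values normal. The ratio was taken on CPM without logs and the members share the same 8 libraries, so that number is a rough guide. Of the 11, 10 were libraries of replicate 3, all of them high. In Mettl3-RNP 3 these were Srsf7 at 160 CPM (next 83.8), Srsf11 at 235 CPM (next 155), Srsf5 at 1059 CPM (next 515), Rbm39 at 786 CPM (next 364) and Ptbp2 at 82.0 CPM (next 32.9). In Pulsed 3 they were Srsf5 at 1222 CPM (next 555), Clk4 at 81.2 CPM (next 59.3), Rbm39 at 904 CPM (next 383), Srsf4 at 129 CPM (next 77.8) and Ptbp2 at 107 CPM (next 32.7). The remaining value was low, Hnrnpm at 299 CPM in Pulsed 1, with the next library at 398 CPM. Srsf5, Rbm39 and Ptbp2 were set apart in both groups, so both libraries of the pair shared the level. None of these members passed the test between the groups.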

How the results depend on the processing

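The call of Hnrnpa0 was the 1 member call in the reported fit, and with a fold change limit of 1.5 the number of members was 0 under each of the 12 alternatives. With no replicate block 0 members, 0 of the other splicing genes and 0 of all genes passed (559 genes with the block). In that fit 579 of 14942 genes had an unadjusted p under 0.05 in edgeR (3.87%, where 5% are expected with no change in independent libraries). Libraries of the same number correlated, so 5% is not the rate to expect here. The DESeq2 Wald test gave 2 members (Hnrnpa0 and Hnrnpab), 6 other splicing genes and 1449 genes. After removeBatchEffect and limma-trend, a fit that spends no degrees of freedom on the removed pair means, the numbers were 18 members (3 higher and 15 lower), 29 other splicing genes and 4564 genes, and 49.7% of those genes were higher, against 62.8% in the reported fit. No filter on low counts gave 0 other splicing genes and 993 genes, and at least 10 counts in every library gave 4 and 959. Other splicing genes numbered 0 with DESeq2 size factors, 2 with total counts alone and 2 with limma-voom, against 1. Fits that each left out one pair gave 0 to 1 members, 26 to 383 genes and 0 to 1 other splicing genes. The lowest number of genes came without replicate 2, and without replicate 3 the splicing gene was Son, not Ppp1ca. For these changes the cause was not tested. The 18 members with values in each library, Mettl3 and Ppp1ca kept their direction under the 12 alternatives. Of all 43 tested members 36 did so, and 7 changed sign in at least 1 alternative, at adjusted p of 0.593 or more (Clk2, Hnrnpf, Hnrnph3, Hnrnpm, Hnrnpr, Ptbp2 and Srsf4). Among them the sign of Hnrnpf, Clk2 and Ptbp2 changed with the scaling. The 42 members not called had log2 fold changes of at most 0.25 in size, Srpk3 apart, whose 89 counts limit what can be read from it.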
